A study of Mus musculus with 2 samples.

Results

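Serpins are a family of protease inhibitors, and 6 of them that act in or are made by immune cells were followed here across the cells of a mouse tumour: Serpinb9, Serpinb9b, Serpinb6b, Serpinb1a, Serpina3g and Serpina3f. These genes were picked by name, and their unique molecular identifiers (UMIs, one per captured transcript) were read in each cell class and library; they are 6 of the 32285 genes in the count matrices, and all 6 had a row in both. The genes were chosen after their levels in these cells had been seen, so the levels are described and not tested. The cells came from tumours of CT26, a mouse colon carcinoma cell line, carried by BALB/c mice, a common inbred strain. In 1 group the tumours were mock tumours, and in the other the CT26 tumours expressed PTIR1, which the study's title calls an immunoproteasome suppressor. Immunoproteasomes are the interferon-induced proteasomes that cut peptides for antigen presentation. Both groups shared strain, tissue and tumour line, and their labels name tumour-infiltrating lymphocytes as the source without saying how many mice, what age, or which sort was used. Each group was 1 droplet-based 3' single-cell library, so no difference between them has a replicate, no p-value can be given, and every interval below is an exact 95% interval that covers counting error only.

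A serpin presents a reactive loop that the protease cuts, after which the inhibitor closes around its target and both are lost. Clade B serpins have no secretion signal and work inside the cell, where they protect lymphocytes, dendritic cells and granulocytes from proteases that leak from their own granules or are delivered by a neighbour. Serpinb9 is the mouse inhibitor of granzyme B, the main cell-killing protease of cytotoxic granules; Serpinb9b inhibits granzyme M and Serpinb6b granzyme A. Serpinb1a inhibits elastase-type and chymase-type proteases of neutrophils and mast cells. Serpina3g, also called Spi2A, belongs to the mostly secreted clade A but stays inside lymphocytes and myeloid cells, where it inhibits cathepsins, and it is known as an interferon-inducible gene. Serpina3f is its close relative.

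The 4 clade B genes lie on chromosome 13 (GRCm38, GENCODE vM21). Serpinb1a is at 32842092 to 32851185 on the minus strand. Serpinb6b (32965209 to 32979067), Serpinb9 (33003250 to 33017957) and Serpinb9b (33027416 to 33041884) follow each other on the plus strand. The clade A pair lies on the plus strand of chromosome 12, with Serpina3f at 104214544 to 104221129 and Serpina3g at 104236245 to 104241939. Both pairs are close copies: the longest reading frames of Serpinb9 and Serpinb9b were identical at 86.5% of 1122 aligned bases, and those of Serpina3g and Serpina3f at 87.4% of 747. No window of 90 bases within the last 400 bases of any of the 6 transcripts, the end that a 3' library reads, was shared with a transcript of another gene. The annotation places 1 other gene, Gm36099, over Serpinb9b on the opposite strand, and none over the other 5.

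The sequences before the start sites of both pairs are shown because the copies share much of this stretch, while Serpinb9 and Serpinb9b differed in their highest class and Serpina3g and Serpina3f in level. Each is 250 bases, from RefSeq on GRCm38.p6, plus strand, ending at the base before the RefSeq start: chr13:33004291-33004540 for Serpinb9, chr13:33027164-33027413 for Serpinb9b, chr12:104235897-104236146 for Serpina3g and chr12:104214294-104214543 for Serpina3f. Capitals mark matches on either strand to TTCNNNGAA, the letters of an interferon gamma-activated site, or to GAAA, any 2 bases and GAAA, the letters of an interferon-stimulated response element.
Serpinb9: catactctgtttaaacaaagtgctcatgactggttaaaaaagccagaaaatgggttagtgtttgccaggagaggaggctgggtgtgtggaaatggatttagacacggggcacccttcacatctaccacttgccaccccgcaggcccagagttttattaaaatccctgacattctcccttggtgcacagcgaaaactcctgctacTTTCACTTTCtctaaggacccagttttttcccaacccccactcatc
Serpinb9b: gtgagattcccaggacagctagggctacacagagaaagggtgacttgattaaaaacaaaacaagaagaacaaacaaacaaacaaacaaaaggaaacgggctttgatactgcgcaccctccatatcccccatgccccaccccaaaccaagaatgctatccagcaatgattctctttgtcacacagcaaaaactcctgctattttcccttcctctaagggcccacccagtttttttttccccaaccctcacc
Serpina3g: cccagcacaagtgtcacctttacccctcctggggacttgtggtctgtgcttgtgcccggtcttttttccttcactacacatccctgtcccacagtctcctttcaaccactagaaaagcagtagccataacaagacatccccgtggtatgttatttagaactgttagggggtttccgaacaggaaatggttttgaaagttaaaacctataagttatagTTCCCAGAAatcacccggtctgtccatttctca
Serpina3f: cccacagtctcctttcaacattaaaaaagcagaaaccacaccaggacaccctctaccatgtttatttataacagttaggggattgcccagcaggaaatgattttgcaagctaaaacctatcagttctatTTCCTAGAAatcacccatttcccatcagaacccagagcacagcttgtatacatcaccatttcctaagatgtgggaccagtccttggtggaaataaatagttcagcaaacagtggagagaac
Serpina3g and Serpina3f both held the gamma-activated letters, with the first base at -33 and -121 from the start, and 7.02% of 32851 windows of the same length held them. Serpinb9 held the response element letters at -46, and Serpinb9b and the window of Serpinb6b held neither motif; 2.98% of windows held that element. None of the 5 windows held both motifs. These are matches of letters in these windows only. The RefSeq start of Serpinb9 lies 1291 bases after the first base of the gene in GENCODE. Serpina3f and Serpina3g were identical at 82.9% of 152 aligned bases, and Serpinb9 and Serpinb9b at 68.4% of 225.

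The mock library held 10833 barcodes with a median of 2357 UMIs and the PTIR1 library 9006 with a median of 4933, and 9328 and 7567 passed the filters. There were 30 barcodes found in both libraries. No row of the matrices carries the name PTIR1, so the label could not be checked by its own gene. Cells were put into classes by marker genes and are named by their gate: 2528 mock and 1552 PTIR1 macrophage-gated cells, 526 and 597 natural killer (NK), 293 and 144 T, 417 and 756 B, 857 and 638 monocyte, 155 and 282 neutrophil, 40 and 36 conventional dendritic, 38 and 54 mature dendritic, 116 and 90 plasmacytoid dendritic, 130 and 48 mast cell or basophil, and 44 and 643 fibroblast-gated cells. A gate on CT26 markers took 89 and 62 cells in which only 2 (mock) or 3 (PTIR1) of 8 markers were in at least 10% of cells, so these are called Krt18/Tm4sf1-gated after the genes it rested on. The endothelial gate took 0 cells in both libraries. In each of these 12 classes at least 1 of the class's own markers and 0 of another's stood among the 10 genes most raised over the other cells. The cells were gated on these same markers, so this describes the classes and cannot test them. Another 443 mock cells (4.75%) and 640 PTIR1 cells (8.46%) passed several gates and 3652 and 2025 passed none; they entered no class. Lymphocytes were thus a minority of the classed cells, although the label names lymphocytes. Levels are UMIs of a gene per 1000000 UMIs of the class (CPM), and a gene in a class was called measured with at least 50 UMIs over both libraries.

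**Figure D1:**
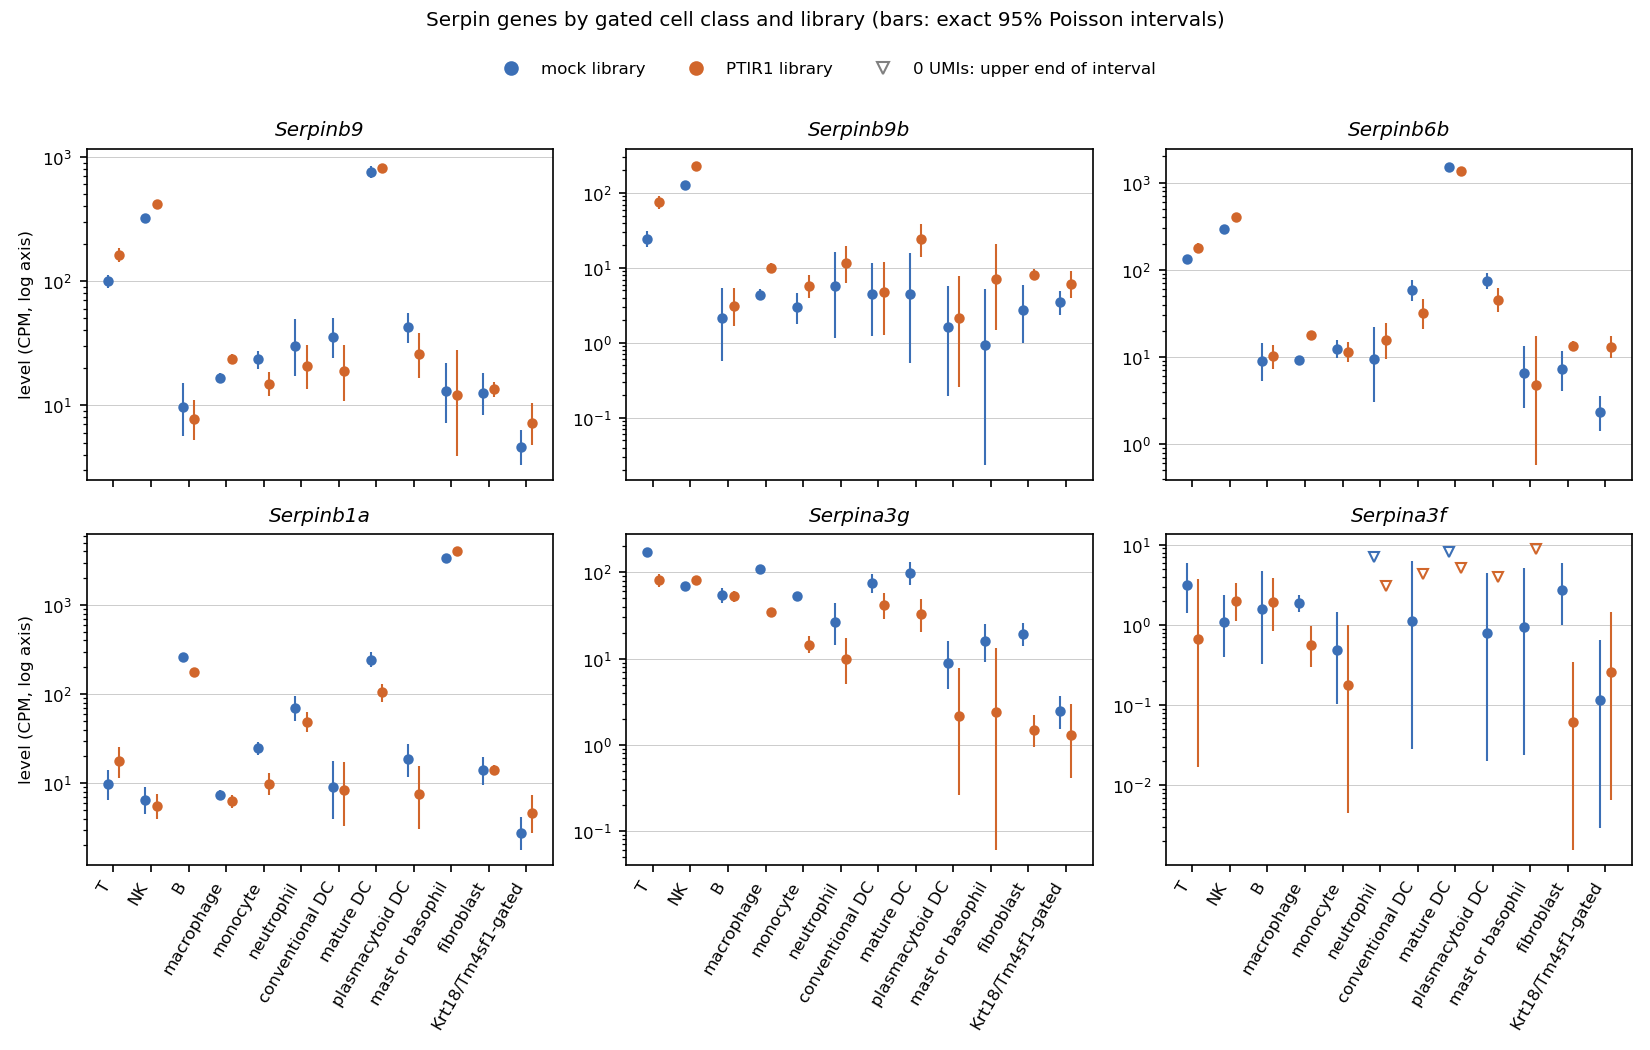
Level of each serpin gene (CPM, log axis) in 12 gated classes of the mock (blue) and PTIR1 (orange) library. Points are class sums, bars are exact 95% Poisson intervals, and open triangles give the upper end of the interval where there were 0 UMIs. Serpinb9 and Serpinb6b are highest in mature dendritic and NK-gated cells, Serpinb9b in NK and T, Serpinb1a in mast cell or basophil, and Serpina3g is spread over T, macrophage, NK and dendritic cells.

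Serpinb9, the granzyme B inhibitor, was highest in mature dendritic-gated cells, the migratory dendritic cells marked here by Ccl22 and related genes. They held 756 CPM (678 to 841) in mock and 808 (743 to 877) in PTIR1. NK-gated cells came next, with 325 CPM (310 to 340) in mock and 417 (402 to 432) in PTIR1, and T-gated cells followed with 99.3 (88.1 to 111) and 163 (143 to 184). The intervals of these 3 classes did not overlap in either library, and the mature dendritic level was 2.33 times (2.07 to 2.61) the NK level in mock and 1.94 times (1.77 to 2.12) in PTIR1. The other 9 classes lay between 4.64 and 42.6 CPM in mock and between 7.20 and 25.9 in PTIR1, and most neighbours in that order had overlapping intervals. The Krt18/Tm4sf1-gated cells were the lowest in both libraries, at 4.64 and 7.20 CPM.

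With each cell cut to 1000 UMIs, Serpinb9 was found in 16 of 37 mock (43.2%) and 31 of 54 PTIR1 mature dendritic-gated cells (57.4%). In NK-gated cells the shares were 27.3% of 521 and 33.3% of 594. B-gated cells, which lack the cytotoxic granules, gave 1.23% of 408 and 0.667% of 750 cells at the same depth, so the shares of the high classes stood above that of a class not known for the gene. Without the cut, 79.8% of mock and 86.4% of PTIR1 NK-gated cells had a Serpinb9 UMI, with a median of 8333.5 and 10213 UMIs a cell, against 4.08% and 3.57% of B-gated cells, with medians of 4279 and 4543.

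Serpinb9b, the granzyme M inhibitor, passed 25 CPM in NK-gated cells of both libraries and in PTIR1 T-gated cells, and in no other of the 12 classes. NK-gated cells held 130 CPM (120 to 140) in mock and 233 (222 to 244) in PTIR1. T-gated cells held 24.6 (19.2 to 31.0) and 74.9 (61.6 to 90.1), so the NK level was 5.28 times (4.14 to 6.84) the T level in mock and 3.11 times (2.56 to 3.80) in PTIR1. The order of the other 10 classes, between 0.933 and 5.67 CPM in mock, could not be read, since 7 of them had 6 UMIs or fewer. Mature dendritic-gated cells, the top class of Serpinb9, gave 2 Serpinb9b UMIs in mock and 17 in PTIR1, or 4.42 and 24.0 CPM, and 1 cell held 12 of the 17 (70.6%) and 1 cell both mock UMIs. The adjacent copy genes thus parted in this class: 342 and 572 UMIs of Serpinb9 against 2 and 17 of Serpinb9b.

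Serpinb9b RNA was held by fewer NK-gated cells than Serpinb9 RNA. At 1000 UMIs a cell it was found in 10.7% of mock (8.22 to 13.7) and 17.0% of PTIR1 NK-gated cells (14.1 to 20.3). Uncut, it was found in 30.4% and 41.4%, against 0.959% and 1.59% of B-gated cells. In T-gated cells the 5 cells with the most Serpinb9b held 57.7% of its 71 mock UMIs and 66.7% of its 111 PTIR1 UMIs. T-gated cells with Cd8a or Cd8b1 held 30.2 CPM (22.9 to 39.1, 150 cells) in mock and 137 (105 to 176, 33 cells) in PTIR1. T-gated cells with Foxp3, the regulatory T cell factor, gave 6 UMIs in 30 mock cells and 0 in 17 PTIR1 cells, where the interval reaches up to 19.1 CPM.

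Serpinb6b, the granzyme A inhibitor, had the order of Serpinb9 in its leading classes. Mature dendritic-gated cells held 1517 CPM (1406 to 1635) in mock and 1346 (1262 to 1434) in PTIR1, the highest level of any of the 3 granzyme inhibitors in any class. NK-gated cells held 296 (281 to 310) and 407 (393 to 422), and T-gated cells 132 (120 to 146) and 178 (157 to 201). The mature dendritic level was 5.13 times (4.69 to 5.61) the NK level in mock and 3.31 times (3.07 to 3.56) in PTIR1. Plasmacytoid dendritic-gated cells held 74.0 and 45.3 CPM and conventional dendritic-gated cells 59.0 and 32.0. Among the latter, the cross-presenting cells with Xcr1 or Clec9a held 96.7 CPM (70.0 to 130, 18 cells) in mock and 36.8 (22.2 to 57.5, 22 cells) in PTIR1, while cells with Cd209a gave 7 UMIs in 19 mock and 0 in 10 PTIR1 cells. At 1000 UMIs a cell, Serpinb6b was found in 62.2% of 37 mock and 63.0% of 54 PTIR1 mature dendritic-gated cells, and in 1.47% and 1.07% of B-gated cells.

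Serpinb1a, the inhibitor of elastase-type and chymase-type proteases, was a gene of mast cells or basophils in both libraries. That class held 3385 CPM (3276 to 3497) in mock and 4061 (3870 to 4259) in PTIR1, 12.8 times (11.7 to 14.1) and 23.1 times (21.2 to 25.3) the next class, B-gated cells. Its cells with mast cell proteases and no Mcpt8 held 3471 CPM (3313 to 3634, 90 cells) and 4000 (3752 to 4260, 33 cells), close to the level of the whole class. Cells with Mcpt8 and no mast cell protease, the basophil pattern, were too few to describe: 4 mock cells with 8 UMIs and 2 PTIR1 cells with 3. B-gated cells held 264 CPM (242 to 289) and 176 (163 to 189), and neutrophil-gated cells, where the gene is best known, 69.9 (49.2 to 96.3) and 48.9 (37.2 to 63.0). The neutrophil UMIs were few and uneven: 37 and 59 in all, of which 67.6% and 84.7% lay in 5 cells. At 1000 UMIs a cell, 73.8% of 122 mock and 83.3% of 48 PTIR1 mast cell or basophil-gated cells had a Serpinb1a UMI, against 1.34% and 0.842% of NK-gated cells. B-gated cells had one in 23.0% of 408 and 17.1% of 750.

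Serpina3g, the cathepsin inhibitor, was found in many classes. In mock it was at 20 CPM or more in 8 of 12 classes, against 7 for Serpinb9, and in PTIR1 in 6, as was Serpinb9. In mock, T-gated cells held 170 CPM (156 to 186), macrophage-gated 109 (106 to 113), mature dendritic-gated 97.3 (70.7 to 131), conventional dendritic-gated 74.9 (57.9 to 95.3), NK-gated 69.7 (63.0 to 77.0), B-gated 54.3 (44.3 to 66.0), monocyte-gated 52.6 (47.0 to 58.7) and neutrophil-gated 26.5 (14.5 to 44.4). T-gated cells held 1.56 times (1.42 to 1.71) the macrophage level. From macrophage-gated to monocyte-gated cells each neighbour in that order overlapped the next, and the neutrophil value rests on 14 UMIs. In PTIR1 the order was another one. NK-gated cells held 82.2 CPM (75.8 to 89.0) and T-gated cells 80.9 (67.1 to 96.8), a ratio of 1.02 (0.834 to 1.25), and B-gated cells, at 52.7 (45.9 to 60.1), stood above macrophage-gated cells, at 34.8 (32.4 to 37.3). Macrophage-gated cells had been second in mock. At 1000 UMIs a cell, Serpina3g was found in 14.6% of 280 mock and 8.57% of 140 PTIR1 T-gated cells, and in 6.20% of 2389 and 2.55% of 1527 macrophage-gated cells. In fibroblast-gated cells it was found in 0 of 641 PTIR1 cells, an exact upper limit of 0.574%, and in 2.33% of them uncut, at a median of 23578 UMIs. In mock fibroblast-gated cells it was found in 1 of 44 (2.27%, 0.0575 to 12.0), an interval that holds the macrophage share, and in 15.9% uncut. Fibroblast-gated cells set no floor of stray RNA for other classes. Granzyme A RNA was at 63.6 CPM in them and at 284 in macrophage-gated cells of the PTIR1 library.

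Serpina3f, its copy, was at or below 3.11 CPM in every class and had enough UMIs to be measured only in macrophage-gated cells, with 65 UMIs in mock, or 1.87 CPM (1.45 to 2.39), and 13 in PTIR1, or 0.565 (0.301 to 0.966). The next largest counts were 15 UMIs in PTIR1 NK-gated and 9 in mock T-gated cells. Over all barcodes it gave 133 UMIs in mock and 74 in PTIR1, against 7021 and 2823 for Serpina3g.

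Comparing PTIR1 with mock, 43 pairs of a gene and a class were measured. The PTIR1 level was lower by 1.5-fold or more in 14 pairs, higher by 1.5-fold or more in 12 and within 1.5-fold in 17. Serpinb9b was higher past 1.5-fold in 6 of its 6 measured classes, Serpina3g was lower in 6 of 8 and higher in 0, and Serpina3f was lower in its 1 class. The Serpinb9b pair of fibroblast-gated cells rests on 6 mock UMIs. What NK-cell RNA would bring of Serpinb9b to macrophage, monocyte, fibroblast and Krt18/Tm4sf1-gated cells is given further below. Serpinb9 was lower in 2 and higher in 2 of 9, Serpinb6b lower in 2 and higher in 3 of 10, and Serpinb1a lower in 3 and higher in 1 of 9. Without the cell with the most UMIs of the gene in each class and library, 9 pairs in place of 14 were lower. Since the genes were chosen with these values in view, the counts describe them and nothing is read from them.

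By class, the share of all measured genes past 1.5-fold gives the background to these counts. In NK-gated cells 1 of 5 measured serpins was higher and 0 lower, where 3.14% of 9518 genes were higher and 2.64% lower. In T-gated cells 3 of 5 were higher and 1 lower, against 4.16% and 6.8% of 7430 genes. In macrophage-gated cells 2 of 6 were higher and 2 lower, against 6.25% and 3.14% of 11612, and in monocyte-gated cells 1 of 5 was higher and 3 lower, against 5.13% and 4.03% of 9157. In B-gated cells 0 of 4 were higher and 1 lower, against 5.75% and 5.64% of 7780. Of the dendritic gates, 2 of 2 measured serpins were lower in conventional (6.34% of 4130 genes), 2 of 4 in mature (7.09% of 2834) and 2 of 2 in plasmacytoid dendritic-gated cells (5.73% of 5269), and 0 were higher in each, where 5.13%, 9.07% and 4.29% of genes were. Neutrophil-gated and mast cell or basophil-gated cells each had 1 measured serpin, within 1.5-fold, with 13.9% and 12.8% of their 3759 and 3607 genes lower and 22.3% and 3.8% higher. In fibroblast-gated cells 1 of 5 was lower and 2 higher, against 11.7% and 15.3% of 10375, and in Krt18/Tm4sf1-gated cells 3 of 3 were higher and 0 lower, against 5.62% and 8.43% of 9369. Over all kept cells 3 of 6 were lower and 1 higher, against 5.32% and 12% of 14314 genes, a comparison that also carries the different makeup of the libraries. The median log2 ratio of all genes lay between -0.07 and 0.10 in the 12 classes.

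**Figure D2:**
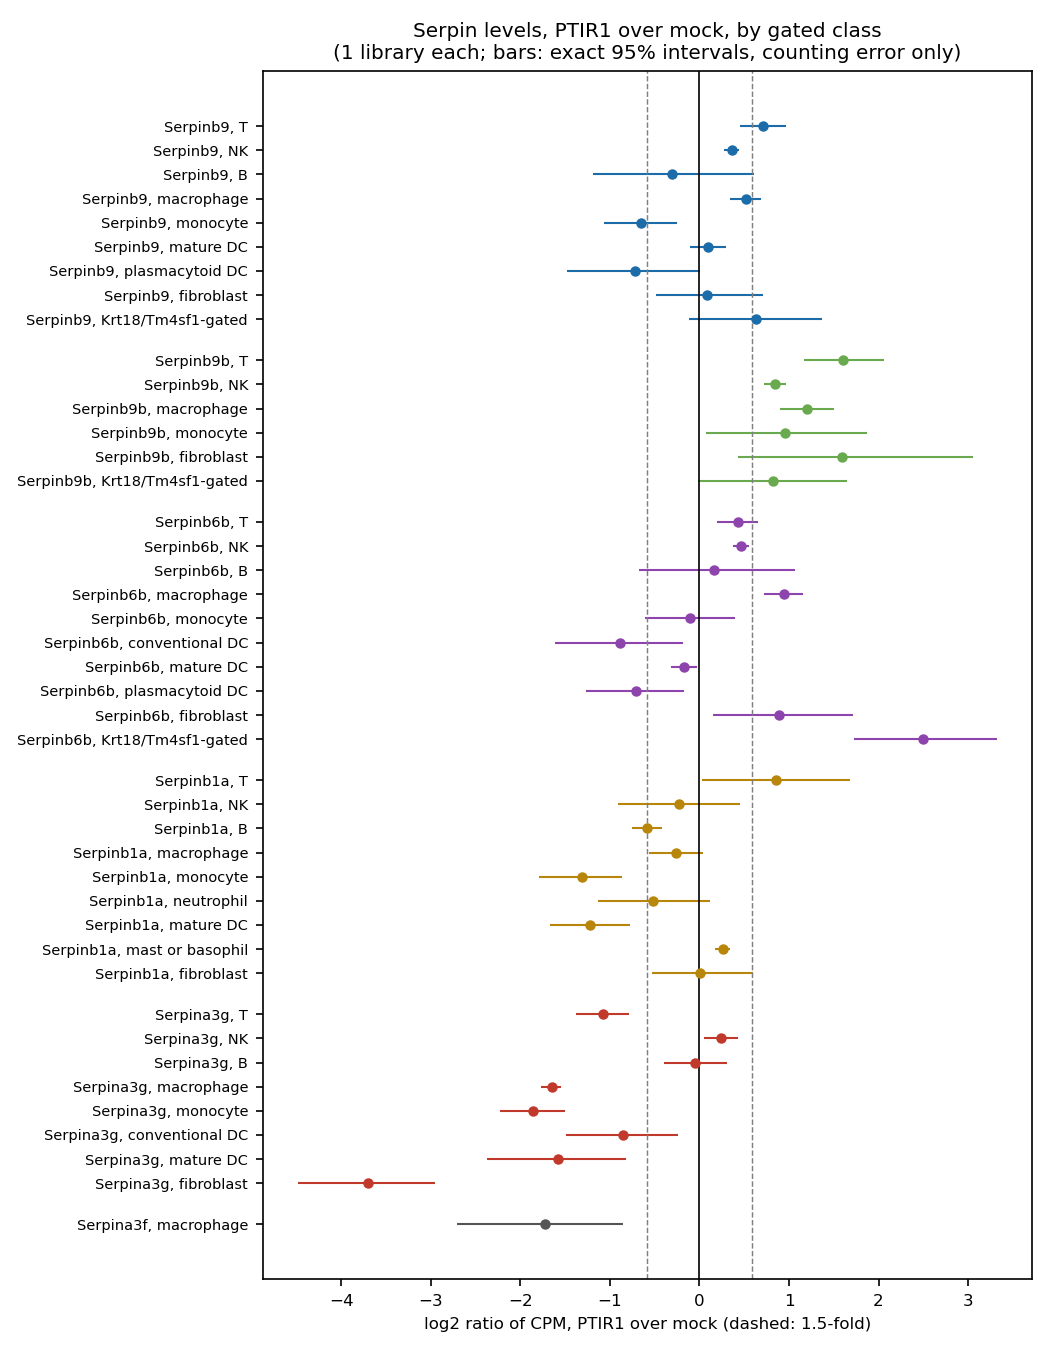
Log2 ratio of CPM, PTIR1 over mock, for the 43 measured pairs of a serpin gene and a gated class; bars are exact 95% intervals for counting error between 2 single libraries, and dashed lines mark 1.5-fold. The 6 Serpinb9b points lie to the right of the 1.5-fold line, and 6 of 8 Serpina3g points lie to the left of it.

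In NK-gated cells all 3 granzyme inhibitors were higher in the PTIR1 library. Serpinb9 went from 325 to 417 CPM, a ratio of 1.28 (1.21 to 1.36), Serpinb6b from 296 to 407, a ratio of 1.38 (1.30 to 1.46), and Serpinb9b from 130 to 233, a ratio of 1.79 (1.64 to 1.96). Only the last passed 1.5-fold. Serpina3g was at 69.7 and 82.2 CPM in these cells, a ratio of 1.18 (1.04 to 1.34), and Serpinb1a at 6.47 and 5.51 from 36 and 41 UMIs. The 2 libraries did not overlap in their intervals for Serpinb9, Serpinb6b and Serpinb9b, and they overlapped for Serpina3g and Serpinb1a.

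The proteases that these serpins inhibit were counted in the same cells, from a list of 11 genes for granzymes and perforin, the pore-forming protein of the granules. Of all 9518 genes measured in NK-gated cells, 3.14% were higher past 1.5-fold and 2.64% lower. Of the 10 measured from the list, 3 were higher and 0 lower, with a median log2 ratio of 0.23 against -0.05 for all genes. The 3 were granzymes of the rodent cluster beside granzyme B: Gzmg (19.6 CPM in mock and 482 in PTIR1), Gzmf (298 and 1274) and Gzmc (1355 and 2088). The lowest ratio was that of Gzmk, at 12.9 and 8.87 CPM. Granzyme B itself, the target of Serpinb9, was at 2965 and 3161 CPM, granzyme A, the target of Serpinb6b, at 8086 and 7175, and granzyme M, the target of Serpinb9b, at 8.27 and 6.45. Serpinb9b was 1.79 times higher, and its known target was at 0.780 of the mock level. That target ratio rests on 46 and 48 UMIs, too few to tell it from no change. Serpinb6b was 1.38 times higher where its target was at 0.887. How inhibitor and target go together was not tested.

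Within NK-gated cells the inhibitors went with granzyme B RNA, as did other granule genes. Cells were cut to 1000 UMIs and split by their Gzmb UMIs into 0, 1 to 2, and 3 or more. In mock, Serpinb9 was at 255 CPM (230 to 282), 286 (262 to 312) and 402 (376 to 428) in these 3 groups, and in PTIR1 at 309 (281 to 340), 390 (368 to 413) and 491 (467 to 516). Serpinb9b was at 75.0, 85.3 and 200 CPM in mock and at 153, 147 and 350 in PTIR1, so the step lay between the second and the third group in both libraries. Serpinb6b was at 269, 286 and 321 CPM in mock, where neighbouring groups overlapped, and at 344, 380 and 462 in PTIR1. Serpina3g had no such order in mock, at 80.4, 58.5 and 71.7 CPM, and in PTIR1 it was lower in the first group, at 54.8 (43.3 to 68.5), than in the second and the third, at 87.5 (77.1 to 98.9) and 89.7 (79.4 to 101). The PTIR1 level was above the mock level in all 3 groups for each of the 3 granzyme inhibitors, and the share of cells in the top group was 42.0% in mock and 39.6% in PTIR1. Prf1 was at 937, 1053 and 1779 CPM in the 3 mock groups and at 1019, 1263 and 1751 in PTIR1. Gzma was at 4823, 6418 and 11515 in mock and at 4536, 5923 and 9555 in PTIR1.

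**Figure D3:**
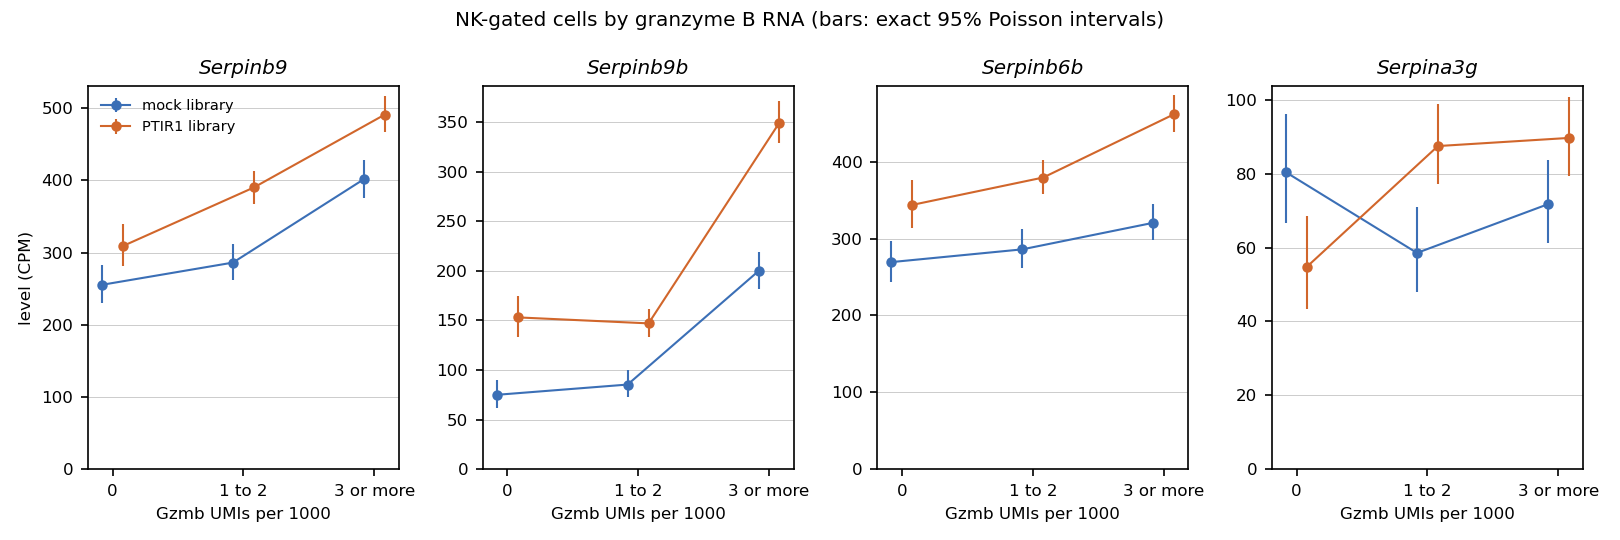
Level (CPM) of 4 serpins in NK-gated cells split by Gzmb UMIs per 1000 UMIs of the cell, mock in blue and PTIR1 in orange, with exact 95% Poisson intervals. Serpinb9, Serpinb9b and Serpinb6b are highest in the group with 3 or more Gzmb UMIs in both libraries (Serpinb9b 200 and 350 CPM), and PTIR1 lies above mock in each group for these 3 genes.

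In T-gated cells the pattern split. Serpinb9b went from 24.6 to 74.9 CPM, a ratio of 3.05 (2.24 to 4.17), Serpinb9 from 99.3 to 163, a ratio of 1.64 (1.37 to 1.95), and Serpinb6b from 132 to 178, a ratio of 1.34 (1.14 to 1.58). Serpina3g went the other way, from 170 to 80.9 CPM, a ratio of 0.475 (0.386 to 0.581). Serpinb1a was at 9.68 and 17.5 CPM from 28 and 26 UMIs. T-gated cells with Cd8a or Cd8b1 held 193 CPM of Serpina3g (174 to 214) in mock and 84.2 (59.6 to 116) in PTIR1, and those with Foxp3 held 285 (222 to 359) and 135 (88.2 to 198). T-gated cells with neither held 70.9 (52.2 to 93.9) and 67.6 (50.3 to 88.9), intervals that overlap. The makeup of the class differed too: 150 of 293 mock and 33 of 144 PTIR1 T-gated cells had Cd8a or Cd8b1, and its part in the class value was not tested. NK markers summed to 1093 CPM in mock and 796 in PTIR1 T-gated cells, with 0 of 6 at 0 in both, and their part was not tested either.

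Granzymes were higher in PTIR1 T-gated cells as well, with 6 of 9 measured past 1.5-fold, 0 lower and a median log2 ratio of 1.32 against -0.03. Of 7430 genes measured in these cells, 4.16% were higher and 6.8% lower. The largest ratios were those of Gzmg (7.95 and 564 CPM) and Gzmd (55.3 and 326), and the lowest those of Prf1 (501 and 469) and Gzmk (16.3 and 18.2). Cells that passed both the T and the NK gate entered the class in which they had the larger share of markers. Without such cells the log2 ratio in T-gated cells was 0.92 for Serpinb9b, against 1.61 with them, and 1.04 for Serpinb6b, against 0.43. With cells cut to 1000 UMIs, the log2 ratio of Serpinb9 in T-gated cells was -0.45, against 0.71 from all UMIs. The UMIs of the cut are drawn at random, and few were left. A UMI was found in 25 of 280 mock (5.86 to 12.9%) and 8 of 140 PTIR1 cells (2.50 to 10.9%), intervals that overlap. The ratio kept its direction in 10 of 11 alternatives.

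In macrophage-gated cells Serpina3g and Serpina3f had the lowest ratios of the 6. Serpina3g was at 109 CPM (106 to 113) from 3795 UMIs in mock and at 34.8 (32.4 to 37.3) from 800 UMIs in PTIR1, a ratio of 0.318 (0.295 to 0.344). The mock UMIs lay in 522 of 2528 cells, and the 5 highest cells held 9.35% of them. Serpina3f had a ratio of 0.302 (0.153 to 0.553). In monocyte-gated cells Serpina3g was at 52.6 and 14.5 CPM, a ratio of 0.276 (0.214 to 0.354), where 1 cell held 35.8% of the 81 PTIR1 UMIs, in mature dendritic-gated cells at 97.3 and 32.5, a ratio of 0.334 (0.193 to 0.565), and in conventional dendritic-gated cells at 74.9 and 41.5, a ratio of 0.554 (0.357 to 0.846). B-gated cells were level, at 54.3 and 52.7 CPM, a ratio of 0.969 (0.762 to 1.24). Fibroblast-gated cells gave the lowest ratio, 0.0768 (0.0446 to 0.130), but of the 43 mock UMIs in 44 cells 53.5% lay in 1 cell and 95.3% in 5.

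The genes of a list of 18 interferon gamma targets were counted beside it. In macrophage-gated cells 14 of 18 were lower past 1.5-fold in PTIR1 and 0 higher, with a median log2 ratio of -0.88 against -0.01 for all genes. The lowest ratios were those of Cxcl9, a chemokine for T cells (503 CPM in mock and 132 in PTIR1), and Ciita, the regulator of class II antigen presentation (27.8 and 9.22). The highest were those of Irf8, a myeloid transcription factor (324 and 291), and Cd274, which encodes the checkpoint ligand PD-L1 (148 and 114). In monocyte-gated cells 16 of 18 were lower and 0 higher. In NK-gated cells, where Serpina3g was at a ratio of 1.18, 0 of 18 were lower and 1, Ciita, was higher. In T-gated cells, where Serpina3g was at 0.475, 2 of 17 measured were lower, Nlrc5 (42.9 and 27.6 CPM) and Cxcl9 (56.0 and 36.4), and 0 higher. In B-gated cells, where it was at 0.969, 6 of 17 were lower. Of all measured genes, 3.14% were lower in macrophage-gated, 4.03% in monocyte-gated, 2.64% in NK-gated, 6.8% in T-gated and 5.64% in B-gated cells. In NK-gated cells 3.14% were higher.

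Within the macrophage gate, Serpina3g RNA lay in the cells with RNA of that list. Cells were cut to 1000 UMIs and split by list UMIs into 0, 1 to 2, and 3 or more. Serpina3g was at 8.15 CPM (5.94 to 10.9), 15.9 (13.8 to 18.3) and 215 (208 to 222) in mock and at 6.59 (4.73 to 8.94), 12.9 (10.8 to 15.3) and 101 (93.3 to 109) in PTIR1. The libraries overlapped in their intervals in the first and second group and were apart in the third. The third group held 45.8% of mock and 25.6% of PTIR1 cells. The level in that group was lower in PTIR1 and so was the share of cells in it; the group has no upper end, so cells within it may also differ in list RNA. Serpina3f gave 1, 9 and 54 UMIs in the 3 mock groups and 1, 2 and 10 in PTIR1. Serpinb9 also went with the list, at 6.34, 10.8 and 24.5 CPM in mock and up to 34.8 in PTIR1, but there PTIR1 was above mock in each group. Serpinb1a had no such order, at 10.9, 7.09 and 5.85 CPM in mock and 5.63, 6.22 and 6.66 in PTIR1.

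**Figure D4:**
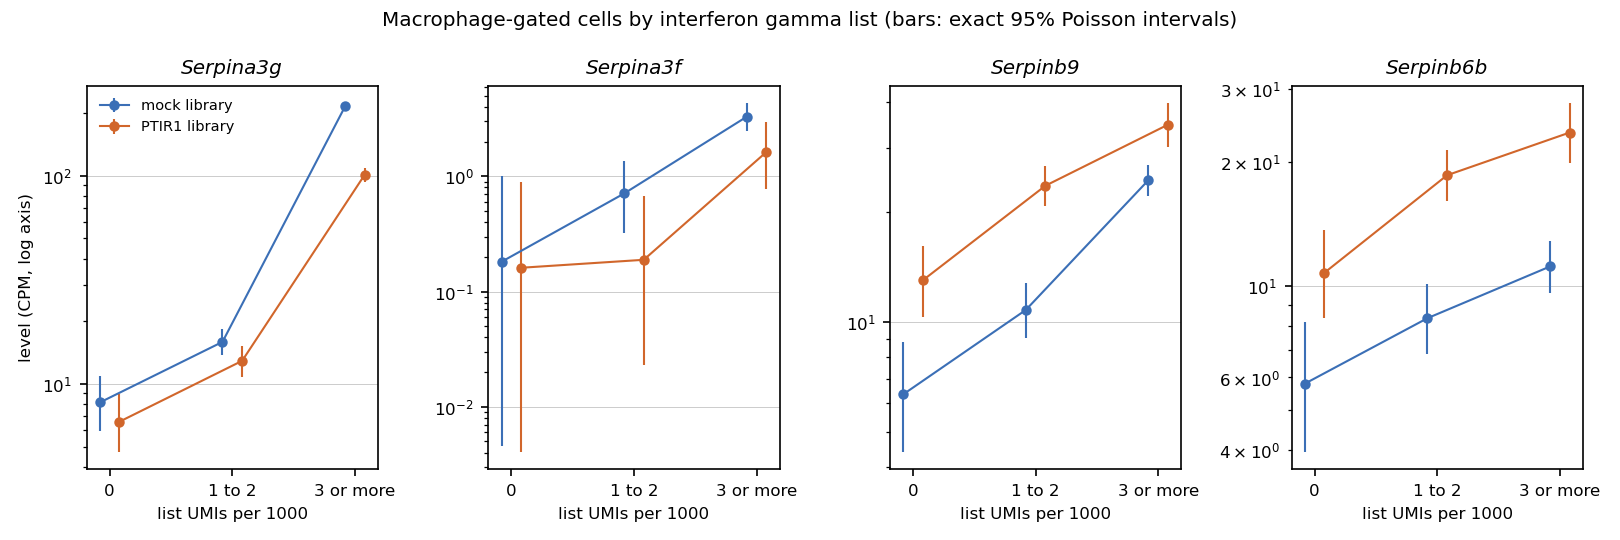
Level (CPM, log axis) of 4 serpins in macrophage-gated cells split by UMIs of the interferon gamma list per 1000 UMIs of the cell, mock in blue and PTIR1 in orange, with exact 95% Poisson intervals. Serpina3g reaches 215 CPM in mock and 101 in PTIR1 in the group with 3 or more, while Serpinb9 and Serpinb6b lie higher in PTIR1 in each group.

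The 3 granzyme inhibitors were also higher in PTIR1 macrophage-gated cells, at low levels: Serpinb9 at 16.6 and 23.8 CPM, a ratio of 1.43 (1.27 to 1.61), Serpinb6b at 9.27 and 17.8, a ratio of 1.92 (1.65 to 2.23), and Serpinb9b at 4.41 and 10.1, a ratio of 2.30 (1.87 to 2.84). RNA of cytotoxic cells moved with them: Gzma, the granzyme A gene, was at 151 and 284 CPM in the same cells, and was found in 35.2% and 48.8% of them. NK markers summed to 92.3 and 124 CPM there with 0 of 6 at 0. Each Gzma UMI came with 0.0366 Serpinb6b, 0.0160 Serpinb9b and 0.0402 Serpinb9 UMIs in mock NK-gated cells and with 0.0567, 0.0324 and 0.0581 in PTIR1. RNA with that mixture would bring 5.51 CPM of Serpinb6b to mock and 16.1 to PTIR1 macrophage-gated cells, where 9.27 and 17.8 were seen, and 2.42 and 9.21 of Serpinb9b, where 4.41 and 10.1 were seen. For Serpinb9 it would bring 6.06 and 16.5, where 16.6 and 23.8 were seen. To monocyte-gated cells the same mixture would bring 2.697 CPM of Serpinb9b in mock and 5.29 in PTIR1, where 2.97 and 5.74 were seen. To fibroblast-gated cells it would bring 0.145 and 2.06, where 2.71 and 8.13 were seen. To Krt18/Tm4sf1-gated cells it would bring 0.309 and 0.325, where 3.48 and 6.17 were seen. The part of NK-cell RNA in these ratios was not tested further.

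The same reckoning was made for the classes with high levels. Mature dendritic-gated cells held 26.5 and 65.0 CPM of Gzma, which would bring 0.970 and 3.69 CPM of Serpinb6b, where 1517 and 1346 were seen. In T-gated cells it would bring 12.6 CPM of Serpinb9 to mock and 50.2 to PTIR1, where 99.3 and 163 were seen, and 5.02 and 28.0 of Serpinb9b, where 24.6 and 74.9 were seen. T cells make Gzma themselves, so the RNA brought in from NK cells cannot be told apart there from their own, and its part in the T-cell ratios was not tested.

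Monocyte-gated cells held less Serpinb9 and Serpinb1a in PTIR1. Serpinb9 was at 23.4 CPM (19.7 to 27.6) and 14.9 (11.9 to 18.5), a ratio of 0.636 (0.480 to 0.840), and 5 cells held 47.2% of the 142 mock UMIs. With a marker share of at least 0.2% its log2 ratio was 1.61 in place of -0.65. Serpinb1a was at 24.6 (20.8 to 28.8) and 9.87 (7.43 to 12.8), a ratio of 0.402 (0.290 to 0.551). Mast cell protease RNA moved with it. Of 7 measured from a list of 9 neutrophil and mast cell proteases, 6 were lower past 1.5-fold and 1 higher. Of 9157 measured genes, 4.03% were lower and 5.13% higher. The median log2 ratio of the list was -3.64. Cma1, the mast cell chymase gene, was at 185 and 14.9 CPM in the same cells. At the ratio seen in mast cell or basophil-gated cells, 0.117 and 0.107 Serpinb1a UMIs per Cma1 UMI, that RNA would bring 21.7 CPM of Serpinb1a to mock and 1.59 to PTIR1 monocyte-gated cells, where 24.6 and 9.87 were seen.

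B-gated cells held 264 and 176 CPM of Serpinb1a, a ratio of 0.664 (0.592 to 0.746), just past 1.5-fold, where Cma1 RNA would bring 7.94 and 1.39. In mast cell or basophil-gated cells Serpinb1a was at 3385 and 4061 CPM, a ratio of 1.20 (1.13 to 1.27). Of its candidate targets there, 1 of 7 measured proteases was lower and 0 higher, where 12.8% of 3607 genes were lower and 3.8% higher. The 1 was Mcpt1, at 751 and 33.6 CPM. Ctsg, which encodes cathepsin G, was at 1127 and 1531 CPM and Cma1 at 28844 and 38083. In mature dendritic-gated cells Serpinb1a was at 243 and 105 CPM, but 1 of 38 mock cells held 82.7% of its 110 UMIs, and without the highest cell of each library the log2 ratio was 0.68 in place of -1.22.

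In the dendritic gates no measured granzyme inhibitor was higher past 1.5-fold, and the difference from NK-gated cells was not tested. Mature dendritic-gated cells were within 1.5-fold for Serpinb9, with a ratio of 1.07 (0.933 to 1.23), and for Serpinb6b, with 0.887 (0.804 to 0.980). Serpinb9b, with 2 and 17 UMIs, was not measured there. Conventional dendritic-gated cells had a Serpinb6b ratio of 0.542 (0.327 to 0.879) from 52 and 27 UMIs, of which 75.0% and 92.6% lay in 5 cells. Plasmacytoid dendritic-gated cells had ratios of 0.612 (0.414 to 0.891) for Serpinb6b and 0.607 for Serpinb9, from 53 and 24 UMIs, with an interval that reaches no change. In Krt18/Tm4sf1-gated cells Serpinb6b was at 2.32 CPM (1.42 to 3.58) from 20 UMIs in mock and 13.1 (9.76 to 17.2) from 51 UMIs in PTIR1, a ratio of 5.65 (3.31 to 10.0). Of the marker lists of other classes, fibroblast markers were the highest in those cells, at 494 and 624 CPM in all, followed by monocyte markers at 238 and 326, while NK markers were at 11.9 and 2.57. Their part in the ratio was not tested.

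Cathepsins, the targets of Serpina3g, were counted in the same way. In macrophage-gated cells 0 of 12 were lower past 1.5-fold and 2 higher, with a median log2 ratio of -0.14. The 2 were Ctsk, the collagen-degrading cathepsin K (11.8 and 53.4 CPM), and Ctsw, a cathepsin of cytotoxic lymphocytes (9.16 and 17.6), and the lowest ratios were those of Ctsh (301 and 216) and Ctsc, which activates granzymes (1951 and 1472). Of all measured genes, 6.25% were higher and 3.14% lower in these cells. Fibroblast markers summed to 9.93 and 44.3 CPM there, and Gzma was at 151 and 284. The part of RNA from fibroblasts or cytotoxic cells in the Ctsk and Ctsw ratios was not tested. In T-gated cells 0 of 10 measured passed 1.5-fold in either direction.

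Other serpins were few in these cells. Of 17 other clade B genes with a row, Serpinb6a was measured in T, NK and B-gated cells, and macrophage-gated cells also had Serpinb8, Serpinb2 and Serpinb12. Serpinb6a, which inhibits several trypsin-like and granule proteases, was at 117 and 83.6 CPM in T-gated, 70.3 and 64.3 in NK-gated and 32.6 and 47.6 in macrophage-gated cells. Of 19 other clade A genes with a row, 0 were measured in any class. Of 11 serpins of other clades, 2 of 4 measured were higher past 1.5-fold in macrophage-gated cells (median log2 ratio 1.09), 3 of 3 in monocyte-gated (2.58) and 2 of 4 in fibroblast-gated cells (0.33), and 0 were lower in these classes. Of all measured genes, 6.25%, 5.13% and 15.3% were higher in these classes, in that order, and 3.14%, 4.03% and 11.7% lower. Fibroblast markers summed to 9.93 CPM in mock and 44.3 in PTIR1 macrophage-gated cells, and to 18.3 and 84.9 in monocyte-gated cells. The part of fibroblast RNA in these ratios was not tested. In fibroblast-gated cells Serpinf1, an inhibitor of vessel growth, was at 134 and 235 CPM, and Serpinh1, the collagen chaperone, had the lowest ratio, at 345 and 264. Serpinb10 and Serpina3h have no row.

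The pattern over 24 points (12 classes in 2 libraries, log2(CPM + 1)) was compared among 8126 genes with a mean of at least 10 CPM, as a description, since the points of a library share its cells and depth. The gene most like Serpinb9 was Serpinb6b, with Pearson's r of 0.96, and it was the closest to Serpinb6b in turn. Serpinb9b was at 0.67 with Serpinb9. The genes closest to Serpinb9b were Klrg1, Klra3, Rgs16, Klre1 and Ncr1 (0.85 to 0.83), of which Klrg1, Klra3, Klre1 and Ncr1 encode NK cell receptors. Serpinb9 was further followed by Pik3r1, Ccl5, Auh and Il12rb2 (0.91 to 0.88), and Serpinb6b by Pik3r1, Gtpbp1, Auh and Gm47662 (0.90 to 0.87). Gm47662 is a lincRNA gene of the same strand that starts 17995 bases after the end of Serpinb6b. Serpinb1a was closest to Rgs13, Cyp11a1, Papss2, Fcer1a and Gnaz (0.87 to 0.82), among them Fcer1a, which encodes the IgE receptor chain of mast cells. Serpina3g was closest to AW112010, Nmi, Ppp4c, Akna and Sh3bgrl3 (0.82 to 0.80). Serpina3f was at 0.56 with Serpina3g, and its closest genes reached 0.72. Serpina3f itself had a mean of 0.814 CPM, under the 10 CPM asked of the compared genes.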

How the data were processed

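The deposited values are UMI counts per gene and cell barcode, which the authors made, per the file headers, with Cell Ranger 5.0.0. Seurat 3.2.3 and mm10 are named in the submitters' processing notes. The annotation version is not given in the sources used here, and gene positions come from GENCODE vM21. The 6 genes and all gene and marker lists were chosen with earlier results of these data known. Barcodes under 200 genes or over 10% of UMIs from mitochondrial genes were dropped, which left 9328 mock (median 2947.5 UMIs) and 7567 PTIR1 (7016).

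A cell entered a class with at least 3 of its markers (2 for the CT26 list) and at least 0.1% of its UMIs from them (0.05% for the CT26, conventional dendritic and endothelial lists), limits set after seeing the data. Cells in both the T and NK gate, or in several dendritic gates, went to the larger marker share, monocytes had to pass no other gate, and cells in other gates together were left out. Only 122 (mock) and 159 (PTIR1) of the 696 and 458 cells with the highest doublet scores were among them; no doublet caller was used in the values reported. Counts were summed per class and library and divided by the class total (CPM). Levels have exact Poisson intervals, ratios exact conditional binomial intervals and shares exact binomial (Clopper-Pearson) intervals, all 95%. A gene was measured in a class with 50 UMIs over both libraries and 20 cells in each. All 6 serpins are named; of a list, the genes with the highest and lowest ratios are named, with at most 4 a list, and the targets of the serpins besides, which were chosen after their values were seen; 1 gene that the rule names is not reported here. The code was tested on simulated Poisson counts with 200 genes changed: in macrophage-gated cells (11528 genes) 99.0% of the changed genes were called in the right direction and 95.7% of intervals held the true ratio. These counts follow the model that the intervals assume, so this checks the code only. UMIs gathered in few cells, as seen for several pairs here, were not simulated, and the intervals leave that spread out. Alternatives varied the filter, gates, doublets, weights, depth, denominator and count minimum. The tools were scipy 1.17.1 and numpy 2.4.6 in Python 3.11.15, with scanpy 1.11.5 for doublet scores, pandas 2.3.3 for tables and matplotlib 3.10.9 for figures.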

Additional observations from a re-analysis of the deposited data

Results flagged for a closer look

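For 3 genes the PTIR1 library was lower than mock by 1.5-fold or more in one class and higher in another, with each 95% interval clear of no change; the difference between classes was not tested, since each class value comes from 1 library a group. Serpinb9 had a log2 ratio of -0.65 in monocyte-gated and 0.71 in T-gated cells. Serpinb6b had -0.88 in conventional dendritic-gated and 2.50 in Krt18/Tm4sf1-gated cells, from 79 and 71 UMIs. Serpinb1a had -1.31 in monocyte-gated and 0.86 in T-gated cells, the latter from 28 mock and 26 PTIR1 UMIs. Of those 26, 73.1% lay in 5 cells. Mast cell RNA would bring 21.7 CPM of Serpinb1a to mock and 1.59 to PTIR1 monocyte-gated cells, where 24.6 and 9.87 were seen. Its part in the monocyte ratio was not tested.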

How the results depend on the processing

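No paired analysis was possible because each group is 1 library. Of 12 alternatives, 4 were chosen after seeing the data: a marker share of at least 0.2%, cells in both the T and NK gate left out, shared barcodes left out, and the cell with the most UMIs of the gene left out. Of the 43 pairs 31 kept their direction in every alternative that gave a value, and of the 26 past 1.5-fold 22 did. The 14 pairs lower by 1.5-fold or more became 2 with cells cut to 1000 UMIs and 9 without the top cell. In both settings fewer pairs reach 50 UMIs. The 12 higher became 3 with the cut.

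For PTIR1 over mock, Serpinb9 in T-gated cells had a log2 ratio of -0.45 with the cut, and in monocyte-gated cells 1.61 with a marker share of 0.2%. Serpinb1a in T-gated cells had -0.65 with cells of several gates put in their best class. Serpinb1a in mature dendritic-gated cells had 1.31 with 1 more marker required, 1.13 with a marker share of 0.2% and 0.68 without the top cell. Serpina3g in monocyte-gated cells went from -1.85 to as little as -0.64 and Serpina3g in macrophage-gated cells stayed between -1.71 and -1.40.

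Between classes, the log2 ratio of mature dendritic over NK for Serpinb9 in mock was 0.90 with cells weighing the same and 0.99 with the cut. In PTIR1 it was 1.10 with 1 more marker, 1.12 with best class, 1.24 with the cut and 0.80 without mitochondrial and ribosomal protein genes in the total. For Serpinb6b it was 2.22 without those genes in mock, and 1.57 in PTIR1, with 1.83 for 1 more marker and 1.85 for best class. NK over T for Serpinb9b was 3.21 with the cut in mock, and in PTIR1 1.96 with best class and 2.59 without cells in both gates. Mast cell or basophil over B for Serpinb1a was in mock 3.35 with equal weights, 3.25 with the cut, 3.54 without those genes and 3.54 with a marker share of 0.2%; in PTIR1 it was 4.08 with equal weights, 4.08 with the cut and 4.35 without those genes. T over macrophage for Serpina3g in mock was 0.48 with 1 more marker, 0.48 with best class, 0.82 without those genes and 0.15 without cells in both gates. NK over T for Serpina3g in PTIR1 was -0.36 with equal weights, -0.66 with the cut and 0.35 without cells in both gates. The cause of these shifts was not tested.

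With 1 library a group the intervals leave out the spread between animals and libraries. Depth limits the small classes most: 38 and 54 mature dendritic-gated and 40 and 36 conventional dendritic-gated cells were read, and Serpina3f was measured in 1 class.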

Other observations

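In mature dendritic-gated cells the 2 highest ratios among 7 measured cathepsins were those of Ctsd and Ctsl, the lysosomal cathepsins D and L, which were at 37.6 and 44.2 CPM in mock and at 113 and 186 in PTIR1, and Serpinb6a was at 6.63 CPM in mock, from 3 UMIs, and at 87.6 in PTIR1. Macrophage markers summed to 186 and 102 CPM and monocyte markers to 845 and 305 in those cells, and fibroblast markers to 4.42 and 32.5; their part was not tested. Cells that passed several gates held 84.0 CPM of Serpinb9 in mock and 99.3 in PTIR1, 51.2 and 12.4 of Serpinb1a, and 126 and 47.8 of Serpina3g. Cells that passed no gate held 19.7 and 8.28 CPM of Serpina3g and 22.6 and 11.3 of Serpinb1a.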
